A study of Mus musculus with 10 samples.

Results

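The genes described here encode the ligands and receptors of the classical axon guidance systems and of ephrin signalling. They were chosen by symbol alone, as every gene whose single annotated symbol begins with Sema, Plxn, Nrp, Slit, Robo, Ntn, Unc5, Efna, Efnb, Epha or Ephb and goes on with the member's letter or number. The rule matched 59 of the 12394 genes measured. Unc50 was matched by its letters only, is not a guidance gene and was set apart, which left 58 members. They comprised 17 semaphorins, 7 plexins, 2 neuropilins, 3 Slit ligands, 3 Robo receptors, 5 netrins, 2 Unc5 receptors, 5 ephrins of class A, 3 ephrins of class B, 8 EphA receptors and 3 EphB receptors. Ephb2, Robo2 and Plxnb1 were not analysed here.

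RNA of cell populations sorted from FVB/N mouse mammary tissue was hybridised to 10 Affymetrix arrays. CAF are cancer-associated fibroblasts from mammary tumours (3 arrays), and COF are fibroblasts from wild-type control glands (3 arrays). CSC, labelled as cancer stem cells (2 arrays), and TEC (2 arrays) were sorted from the same kind of tumour as CAF. The tumour-bearing mice carried the genotype labelled WAPCre-DNbcatn;HGF, so that CAF, CSC and TEC share it, and COF do not. WAP is the whey acidic protein gene, whose promoter is active in the secretory epithelium of the mammary gland, and HGF is the ligand of the receptor Met. The titles read TEC, but the field for the sorted cells reads TEFs on those samples. The mice's age, the number of mice behind an array and the sorting gates are not given in the sources used here. Nor do the labels say that arrays of a group come from separate mice, so the p-values measure only the spread between these arrays, which may be technical.

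Guidance ligands were first described as attractants or repellents of growing axons, and the same systems act on cell movement and contacts in many tissues, the mammary gland included. Semaphorins act through plexins, and the secreted class 3 semaphorins mostly through neuropilin-plexin complexes. Slit proteins bind Robo receptors, netrins bind Unc5 receptors and Dcc or neogenin, and ephrins bind Eph receptor tyrosine kinases on neighbouring cells and signal in both directions. Ephrins A are held in the membrane by a lipid anchor, whereas ephrins B span it.

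The arrays were similar in level, with medians of 6.89 to 7.02 and lower quartiles of 5.05 to 5.26 on the log2 scale. The SD of the gene-by-gene differences was 0.14 to 0.22 between CAF arrays, 0.18 to 0.36 between COF arrays, 0.37 between the CSC arrays and 0.55 between the TEC arrays. The median of 8 fibroblast markers was 13.22 to 13.28 on the CAF arrays, 13.50 to 13.69 on the COF arrays, 9.05 and 8.88 on the CSC arrays, and 9.38 and 12.11 on TEC replicates 1 and 2. The median of 10 epithelial markers was 7.44 to 7.65 in CAF, 6.17 to 7.35 in COF, 12.49 and 12.24 in CSC, and 9.72 and 10.41 in TEC. The leukocyte markers, also 8, had a median of 6.79 to 8.12 on CAF arrays, 5.22 to 6.07 on COF arrays, 11.43 and 11.00 in CSC, and 13.54 and 13.15 in TEC. The fibroblast labels thus went with the highest fibroblast markers, while CSC and TEC carried epithelial and leukocyte markers. Fibroblast markers were present in CSC and TEC as well, most on TEC replicate 2. Their medians on CSC replicates 1 and 2 and TEC replicate 1 exceeded those arrays' upper quartiles of 8.78, 8.83 and 8.75. CSC and TEC also carried macrophage markers, with medians of 11.76 and 11.60 in CSC, and 10.84 and 10.74 in TEC. Values of these mixed populations are averages over cells, and fewer cells of a type cannot be told apart from less RNA per cell.

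Among the 58 members, 17 had their highest group mean in CAF, 20 in COF, 9 in CSC and 12 in TEC. A member was taken to differ when limma's adjusted p was under 0.05. Between CAF and CSC, 35 of 58 members differed, 25 higher and 10 lower in CAF, where 66.5% of all genes passed. Between CSC and TEC, 24 differed, 14 higher and 10 lower in CSC, where 46.7% of all genes passed. Between CAF and COF, 13 differed, 9 higher and 4 lower in CAF, where 34.8% of all genes passed. These shares of the members were 60.3%, 41.4% and 22.4%, each below that of all genes. Of all genes, 33.4% were higher and 33.1% lower in CAF than in CSC, 26.6% were higher and 20.1% lower in CSC than in TEC, and 18.1% were higher and 16.7% lower in CAF than in COF. With each array centred on its median, 14 members were higher and 15 lower in CSC than in TEC, where 47.4% of all genes passed. In a fit to the 4 CSC and TEC arrays alone, 11 members passed between these groups, where 24.3% of all genes did. Between CAF and COF, 8 passed without CAF replicate 2 and 8 without CAF replicate 3, and 7 passed without COF replicate 1 and 7 without COF replicate 3. In the same order, 24.2%, 27.5%, 25.1% and 24% of all genes passed in those fits. The median difference over the members was 0.26 between CAF and CSC, -0.05 between CSC and TEC and -0.01 between CAF and COF. Over all genes these medians were 0.01, 0.00 and 0.02. CAF arrays enter the first and the last of these comparisons, and CSC arrays enter 2 of them, so the 3 are not independent.

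Markers of other cell types differed between CAF and COF as well. All 8 leukocyte markers were higher in CAF, with log2 summed levels of 10.01 to 11.28 in CAF and 8.45 to 9.17 in COF. Of 8 macrophage markers 5 were higher, with sums of 9.67 to 10.50 in CAF and 8.43 to 8.73 in COF. Of 8 pericyte and smooth muscle markers 4 were higher, with CAF sums of 12.92 to 13.06 and COF sums of 9.96 to 11.47. Of 5 adipocyte markers 3 were lower, with CAF sums of 11.15 to 11.57 and COF sums of 12.29 to 12.64. None of the 8 fibroblast markers passed. The part of these cells in the CAF minus COF values of the guidance genes was not tested.

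**Figure D1:**
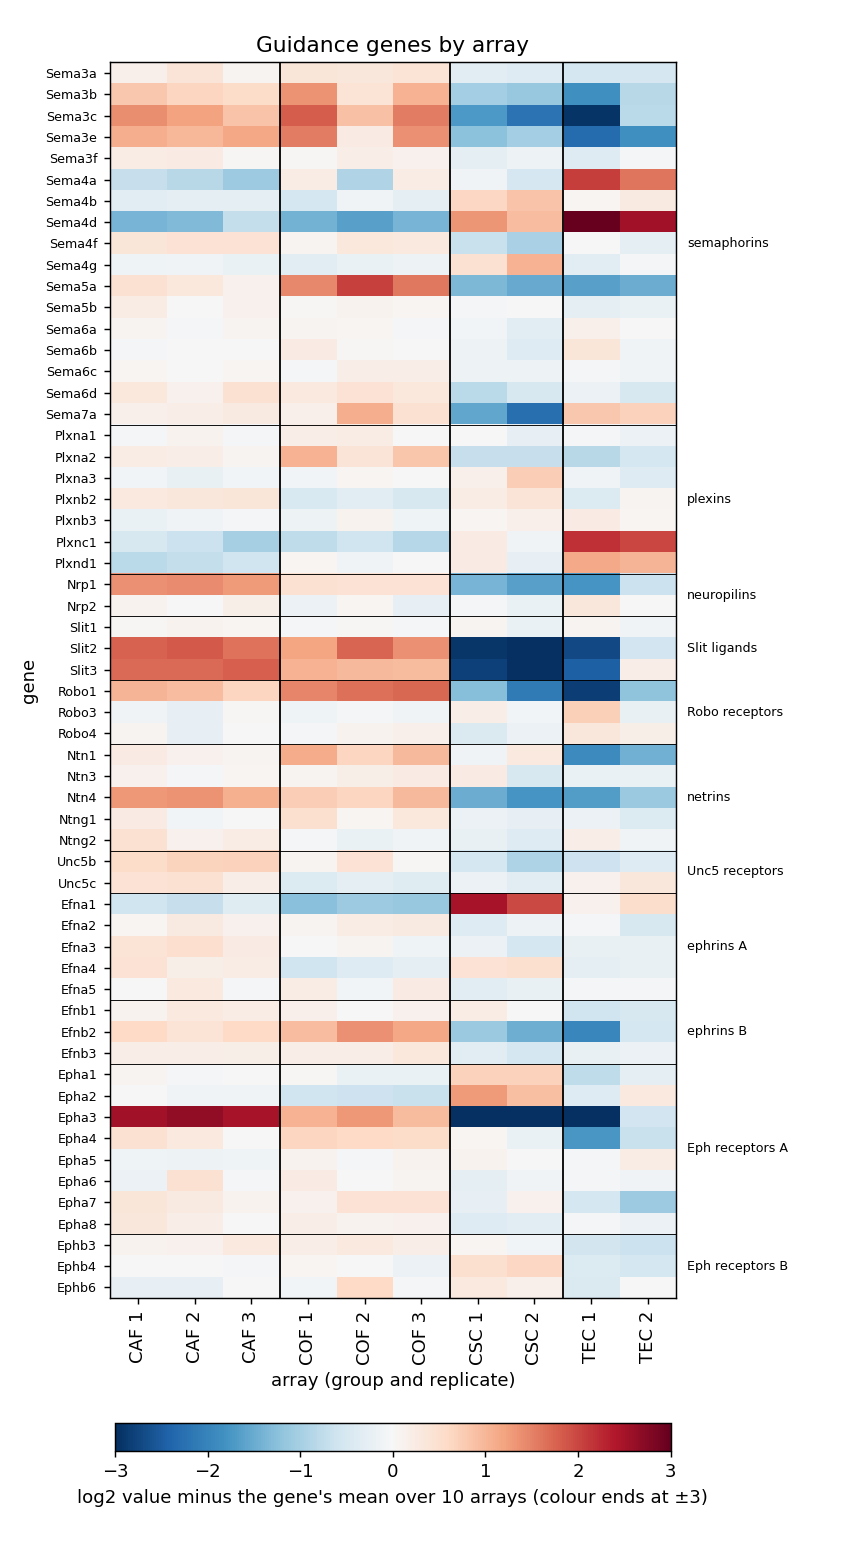
Values of the 58 members on each array, as the log2 value minus the gene's mean over the 10 arrays. Rows are genes by family, and columns are arrays by group (CAF, COF, CSC, TEC) and replicate. Slit2, Slit3, Epha3 and Robo1 are above their mean in all 6 fibroblast arrays and below it in both CSC arrays, while Efna1 and Sema4d are above it in CSC.

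By the probe sets used, Epha3, Slit2 and Slit3 had the greatest increases in CAF over CSC, and Efna1 had the greatest decrease. The regions around annotated starts of these 4 genes are shown for that reason. Each run is 300 bases, from 250 before to 50 after the start, from RefSeq on build GRCm38.p6, on the gene's strand. Epha3 lies at chr16:63864126-63864425 on the minus strand, Slit2 at chr5:47982905-47983204 on the plus strand, Slit3 at chr11:35121206-35121505 on the plus strand, and Efna1 at chr3:89280902-89281201 on the minus strand, as the first listed of its 2 entries. The Slit2 window lies inside the gene, whose RefSeq span begins at position 47981291, so it surrounds a start downstream of the first one. Capitals mark matches, on either strand, to 6 short motifs. These were CTTTGA of TCF/LEF factors, ACCACCC of GLI factors, GGGCGG of SP factors, TATAAA of the TATA box, CATTCC of TEAD factors and TGACTCA of AP-1, core letters that these proteins are known to bind.
Epha3: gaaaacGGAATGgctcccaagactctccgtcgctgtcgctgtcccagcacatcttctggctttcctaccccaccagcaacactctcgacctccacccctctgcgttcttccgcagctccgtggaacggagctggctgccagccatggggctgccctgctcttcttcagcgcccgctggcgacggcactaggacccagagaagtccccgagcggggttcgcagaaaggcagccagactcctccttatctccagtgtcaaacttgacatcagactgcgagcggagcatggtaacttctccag
Slit2: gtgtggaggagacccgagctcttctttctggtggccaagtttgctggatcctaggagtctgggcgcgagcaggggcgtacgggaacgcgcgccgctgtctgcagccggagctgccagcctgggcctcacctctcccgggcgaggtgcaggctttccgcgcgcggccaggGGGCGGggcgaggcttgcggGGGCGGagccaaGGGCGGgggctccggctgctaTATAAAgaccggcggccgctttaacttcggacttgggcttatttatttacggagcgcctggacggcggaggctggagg
Slit3: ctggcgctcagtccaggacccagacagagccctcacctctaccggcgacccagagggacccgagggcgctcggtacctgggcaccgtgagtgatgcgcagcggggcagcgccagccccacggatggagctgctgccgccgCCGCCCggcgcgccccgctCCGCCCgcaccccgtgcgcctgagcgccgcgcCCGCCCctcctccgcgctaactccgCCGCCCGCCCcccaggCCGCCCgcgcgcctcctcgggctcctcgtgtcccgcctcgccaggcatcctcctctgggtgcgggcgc
Efna1: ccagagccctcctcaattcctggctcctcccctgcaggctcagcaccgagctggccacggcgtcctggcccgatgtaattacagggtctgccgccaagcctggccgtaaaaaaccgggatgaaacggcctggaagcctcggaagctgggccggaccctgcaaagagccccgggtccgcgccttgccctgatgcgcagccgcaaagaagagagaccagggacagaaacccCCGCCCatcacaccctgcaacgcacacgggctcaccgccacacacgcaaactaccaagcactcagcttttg
Slit3 held 6 matches to GGGCGG, all written on the other strand as CCGCCC and some overlapping. Slit2 held 3 matches to GGGCGG and 1 to TATAAA, Efna1 held 1 to GGGCGG, and Epha3 held 1 to CATTCC, written as GGAATG. The TCF/LEF, GLI and AP-1 letters are not in these 4 windows. Over the 64 entries of the 51 members with one, 75% held GGGCGG, against 35.7% of all 32851 entries. The median GC content was 64% over the members' entries and 52.7% over all entries. TATAAA was in 3.12% of the members' entries and 13.6% of all, and CTTTGA in 7.81% and 16%. A match describes letters in the window and shows no binding.

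Slit2 and Slit3, secreted repellents that bind Robo receptors, were high in both fibroblast populations and low in CSC. Slit2 was 10.82, 10.90 and 10.70 in CAF, 10.24, 10.81 and 10.43 in COF, 6.15 and 5.71 in CSC, and 6.36 and 8.48 in TEC. Slit3 was 11.22, 11.22 and 11.30 in CAF, 10.56, 10.48 and 10.47 in COF, 6.72 and 6.37 in CSC, and 7.07 and 9.71 in TEC. All 6 fibroblast arrays stood above all 4 CSC and TEC arrays for both genes, and TEC replicate 2 stood above the other TEC array. Between CAF and CSC the difference was 4.87 ± 0.49 for Slit2 (SE, adjusted p = 2.76e-05, 29.3-fold) and 4.70 ± 0.58 for Slit3 (adjusted p = 9.50e-05, 26-fold). A second, dimmer Slit2 probe set gave a smaller difference, with means of 6.42 in CAF and 3.42 in CSC. Slit2 overlapped between CAF and COF, with a difference of 0.31 ± 0.44 (adjusted p = 0.65). Slit1 lay between 6.03 and 6.33 on all 10 arrays, with overlap in every comparison.

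Between CSC and TEC, Slit2 was lower in CSC by a log2 difference of -1.49 ± 0.54 (adjusted p = 0.047) and Slit3 by one of -1.85 ± 0.63 (adjusted p = 0.0385). Both sizes rested on TEC replicate 2. Without it they were -0.43 for Slit2 (adjusted p = 0.187) and -0.53 for Slit3 (adjusted p = 0.0172), and without TEC replicate 1 they were -2.55 and -3.17. Leaving out any array other than a TEC array also took both genes past 0.05, to adjusted p-values of 0.0541 to 0.195. The second Slit2 probe set gave a CSC minus TEC difference of -0.41.

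Robo1, a receptor for Slit proteins, followed the fibroblast arrays as well. Its values were 7.75, 7.66 and 7.36 in CAF, 8.19, 8.37 and 8.44 in COF, 5.46 and 4.61 in CSC, and 3.91 and 5.52 in TEC. The CAF arrays lay above both CSC arrays and below all COF arrays. Robo1 was higher in CAF than in CSC by 2.55 ± 0.41 (adjusted p = 5.06e-04). The ligands Slit2 and Slit3 and the receptor Robo1 were thus all higher in CAF than in CSC, and Robo4, a Robo protein of endothelium, had values of 5.02 to 5.35 in CAF and 4.83 and 5.08 in CSC, which overlap. Robo4 was lower in CSC than in TEC, at 4.83 and 5.08 in CSC against 5.61 and 5.44 in TEC, a call lost without CSC replicate 1 (adjusted p = 0.0631). Beside it, 3 of 9 other endothelial markers fell in CSC relative to TEC, and their part in the Robo4 value was not tested. Robo3 was below the lower quartile on every array.

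**Figure D2:**
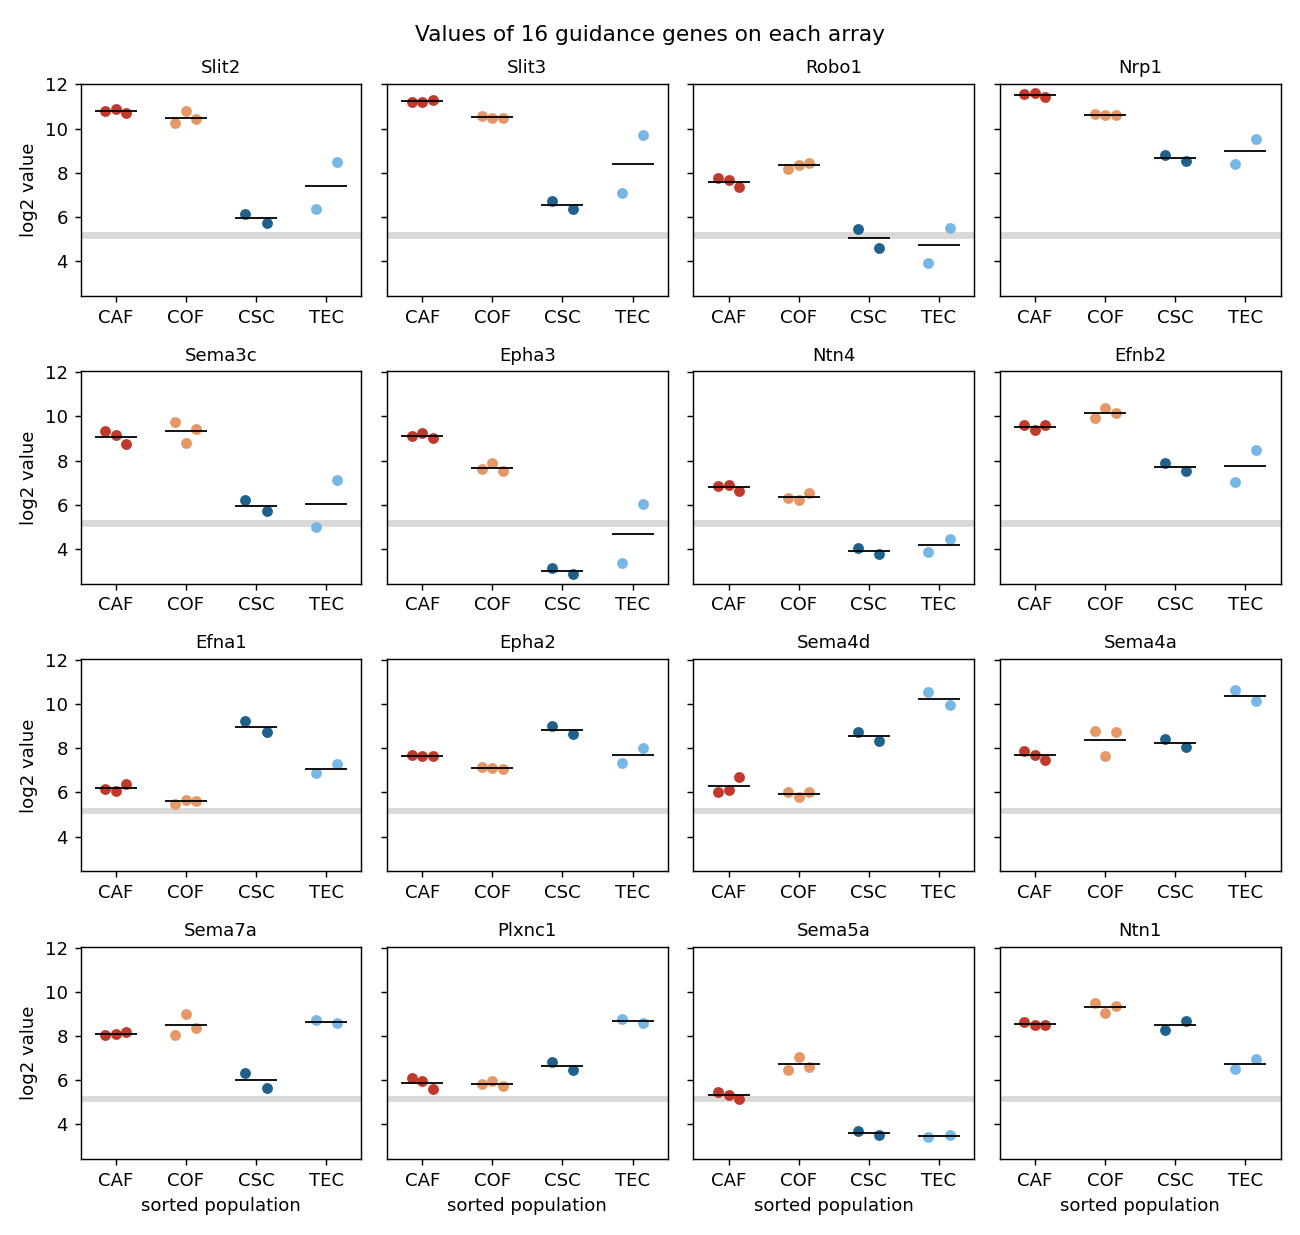
Log2 values of 16 guidance genes on each array, by sorted population (CAF, COF, CSC, TEC). Points are arrays, black lines are group means, and the grey band is the range of the arrays' lower quartiles, 5.05 to 5.26. Slit2, Slit3 and Epha3 separate the fibroblast arrays from CSC, Efna1 is highest in CSC, and Sema4d, Sema4a and Plxnc1 are highest in TEC.

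Of the 17 semaphorins, 12 differed between CAF and CSC, 9 higher and 3 lower in CAF, a share of 70.6% beside the 66.5% of all genes. Their median difference was 0.39, against 0.01 over all genes. The secreted class 3 members were on the fibroblast side. Sema3c, which binds neuropilins, was 9.32, 9.14 and 8.77 in CAF, 9.73, 8.81 and 9.45 in COF, 6.20 and 5.70 in CSC, and 4.99 and 7.11 in TEC. Its fibroblast arrays lay above all CSC and TEC arrays, with CAF and COF overlapping. The difference between CAF and CSC was 3.13 ± 0.53 (adjusted p = 6.92e-04, 8.73-fold). Sema3e, the ligand of Plxnd1, was higher in CAF than in CSC by 2.22 ± 0.33 (adjusted p = 3.05e-04), with 6.87 to 7.03 in CAF against 4.63 and 4.85 in CSC. Both CSC values lay below the lower quartile, and the other Sema3e probe sets gave 1.37 and 1.23. Sema3b was higher by 1.74 ± 0.32 (adjusted p = 0.00106), with 7.88 to 8.14 in CAF against 6.31 and 6.20 in CSC, and its other probe sets gave 1.09 and 0.93. Sema3a and Sema3f passed with CAF values of 6.33 to 6.63 and 6.29 to 6.49, against CSC values of 5.87 to 5.91 and 5.98 to 6.09. The other Sema3a probe sets gave CAF minus CSC differences of 1.20 and 2.25. The call of Sema3f was lost without CAF replicate 1, CAF replicate 2 or CSC replicate 1.

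Nrp1, the co-receptor of class 3 semaphorins and of vascular endothelial growth factor, was 11.55, 11.60 and 11.45 in CAF, 10.64, 10.61 and 10.60 in COF, 8.79 and 8.55 in CSC, and 8.41 and 9.54 in TEC. The 3 CAF arrays lay above the 3 COF arrays, which lay above CSC and TEC. Nrp1 was higher in CAF than in CSC by 2.86 ± 0.26 (adjusted p = 1.55e-05, 7.27-fold) and higher in CAF than in COF by 0.91 ± 0.23 (adjusted p = 0.0147, 1.88-fold). Its 3 probe sets gave CAF minus COF differences of 0.71 to 0.91. The CAF minus COF call was lost without CAF replicate 2, at an adjusted p of 0.0535. Nrp2, its relative, lay between 6.75 and 7.33 on all arrays and passed in no comparison. Its differences were 0.22 ± 0.12 for CAF minus COF (adjusted p = 0.199), -0.30 ± 0.15 for CSC minus TEC (adjusted p = 0.128) and 0.23 ± 0.13 for CAF minus CSC (adjusted p = 0.152).

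Sema5a, a membrane-spanning semaphorin with thrombospondin repeats, was the only member that differed by at least 1 between CAF and COF and passed, where 8.31% of all genes did. It was 5.49, 5.34 and 5.16 in CAF, 6.46, 7.07 and 6.62 in COF, 3.68 and 3.52 in CSC, and 3.41 and 3.54 in TEC. Each CAF array lay below each COF array. CSC, TEC and CAF replicate 3 lay below the lower quartiles of their arrays. CAF values were thus near the array background, on which the size of the folds depends. The CAF minus COF difference was -1.38 ± 0.16 (adjusted p = 2.65e-04), which is 2.61-fold lower in CAF. Sema5a was higher in CAF than in CSC by 1.73 ± 0.18 (adjusted p = 3.02e-05). A second Sema5a probe set, below the lower quartile on average, gave -0.33 for CAF minus COF and 0.33 for CAF minus CSC. No other semaphorin passed between CAF and COF, where 1 of 17 did, a share of 5.88% beside the 34.8% of all genes.

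Sema4d, Sema4a, Sema7a and Plxnc1 were lower in CSC than in TEC. Sema4d, a membrane semaphorin that acts through B-class plexins and is known from lymphocytes, was 6.03, 6.09 and 6.72 in CAF, 6.00, 5.80 and 6.02 in COF, 8.75 and 8.35 in CSC, and 10.54 and 9.94 in TEC. TEC lay highest, CSC next and the fibroblasts lowest, with CAF and COF close together. Sema4d was lower in CSC than in TEC by a difference of -1.69 ± 0.27 (adjusted p = 8.43e-04) and lower in CAF than in CSC by one of -2.27 ± 0.25 (adjusted p = 4.30e-05, 4.83-fold). Its other probe sets gave -0.34 and -1.90 for CSC minus TEC and 0.10 and -0.67 for CAF minus CSC, and the mean of all 3 gave -0.95 for CAF minus CSC, so the sets disagree on the size. Sema4a was 8.44 and 8.05 in CSC against 10.62 and 10.16 in TEC, a difference of -2.15 ± 0.36 (adjusted p = 0.00116). Sema7a, a lipid-anchored semaphorin, was 6.35 and 5.65 in CSC against 8.72 and 8.59 in TEC, a difference of -2.65 ± 0.29 (adjusted p = 1.19e-04, 6.28-fold lower in CSC). A second, dimmer Sema7a probe set gave -0.54. Plxnc1, its plexin receptor, was 6.84 and 6.48 in CSC against 8.78 and 8.59 in TEC, a difference of -2.03 ± 0.19 (adjusted p = 4.39e-05). The ligand Sema7a and its receptor Plxnc1 were thus both lower in CSC than in TEC, and the 4 probe sets of Plxnc1 gave -2.03 to -2.78.

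Leukocyte markers moved with these genes. All 8 fell in CSC relative to TEC, and the log2 of their summed level was 13.95 to 14.49 in CSC and 16.17 to 16.55 in TEC. Of 8 macrophage markers, 4 rose in CSC and none fell, with summed levels of 15.02 to 15.17 in CSC and 14.97 to 15.08 in TEC. The part of leukocytes in the values of Sema4d, Sema4a, Sema7a and Plxnc1 was not tested. Sema7a was also high in the fibroblasts, with CAF values of 8.06 to 8.19 and COF values of 8.06 to 9.01, where leukocyte markers were lowest. It was higher in CAF than in CSC by 2.11 ± 0.27 (adjusted p = 1.18e-04), or 1.29 by its second probe set. Plxnc1 was lower in CAF, at 5.59 to 6.10, than in CSC, by a difference of -0.78 ± 0.17 (adjusted p = 0.00311).

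Sema4a was 7.86, 7.72 and 7.46 in CAF and 8.78, 7.64 and 8.76 in COF. The CAF minus COF difference was -0.72 ± 0.30 and did not pass (adjusted p = 0.0936). The groups overlap through COF replicate 2. Leaving out that array, picked because it makes the overlap, gave -1.09 (adjusted p = 0.00276), which is no separate support. With probe sets ending in _x_at or _s_at left out, Sema4a was read from its other set, at -0.91. Sema4b and Sema4g were the semaphorins higher in CSC than in TEC. Sema4g was 5.64 and 6.22 in CSC against 4.85 and 5.14 in TEC, a difference of 0.93 ± 0.18 (adjusted p = 0.00244), and it was lower in CAF than in CSC by a difference of -0.89 ± 0.16 (adjusted p = 0.00116). The Sema4g values of all CAF and COF arrays and of TEC replicate 1 lay below the lower quartile. Sema4b was 8.06 and 8.29 in CSC against 7.50 and 7.70 in TEC, and 7.09 to 7.17 in CAF. Its CSC minus TEC call was lost without CSC replicate 2 or TEC replicate 1. A second Sema4b probe set gave -0.16 for CSC minus TEC, and the mean of both gave 0.21 (adjusted p = 0.225). Sema4f was lower in CSC, at 5.84 and 5.55, than in TEC, at 6.53 and 6.23, and higher in CAF, at 6.87 to 6.95, than in CSC. Sema6d was higher in CAF, at 6.08 to 6.40, than in CSC, at 5.13 and 5.47. Sema5b, Sema6a, Sema6b and Sema6c passed in no comparison.

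Of 7 plexins, 3 differed between CAF and COF, a share of 42.9% beside the 34.8% of all genes. Plxnb2, a receptor of class 4 semaphorins, was 9.75, 9.79 and 9.82 in CAF and 8.99, 9.15 and 8.98 in COF, with no overlap. The difference was 0.75 ± 0.13 (adjusted p = 0.00195). Plxnd1, the receptor of Sema3e and a gene of vessel patterning, was 7.11, 7.21 and 7.33 in CAF and 7.99, 7.81 and 7.91 in COF, a difference of -0.68 ± 0.13 (adjusted p = 0.00364). Plxna2, a partner of neuropilins, was 7.56, 7.54 and 7.43 in CAF and 8.38, 7.73 and 8.17 in COF, a difference of -0.58 ± 0.16 (adjusted p = 0.0198). Its call was lost without CAF replicate 2, CAF replicate 3, COF replicate 1 or COF replicate 3. Of 9 endothelial markers, 1 was lower and none higher in CAF than in COF, with summed levels of 9.77 to 9.95 in CAF and 10.14 to 10.69 in COF, and their part in the Plxnd1 value was not tested.

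Plxnd1 passed in the other comparisons too. It was 8.17 and 7.68 in CSC against 9.05 and 8.95 in TEC, a difference of -1.07 ± 0.16 (adjusted p = 5.95e-04). It was lower in CAF than in CSC by a difference of -0.71 ± 0.15 (adjusted p = 0.00218), which was -0.46 without CSC replicate 1. Plxna3, a plexin that works with neuropilins, was 6.87 and 7.46 in CSC against 6.61 and 6.33 in TEC, and 6.48 to 6.63 in CAF. Its differences were 0.70 ± 0.19 for CSC minus TEC (adjusted p = 0.0128) and -0.59 ± 0.17 for CAF minus CSC (adjusted p = 0.0124), and both rested on CSC replicate 2. Without that array they were 0.40 (adjusted p = 0.0762) and -0.29 (adjusted p = 0.114). Without TEC replicate 2 the CSC minus TEC call was lost as well, at 0.0616. Plxnb2 was 9.69 and 9.84 in CSC against 9.04 and 9.53 in TEC, a difference of 0.48 ± 0.15 (adjusted p = 0.0304) that was 0.24 without TEC replicate 1 (adjusted p = 0.165) and lost its call without CSC replicate 2 as well. Plxna1 and Plxnb3 passed in no comparison.

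Ntn1, the best studied of the secreted netrins, was 8.64, 8.52 and 8.49 in CAF, 9.52, 9.03 and 9.36 in COF, 8.28 and 8.69 in CSC, and 6.49 and 6.95 in TEC. CAF lay below COF with no overlap, and TEC lay below every other array. Ntn1 was lower in CAF than in COF by a difference of -0.76 ± 0.17 (adjusted p = 0.00835) and higher in CSC than in TEC by 1.77 ± 0.21 (adjusted p = 1.65e-04). A second, dimmer Ntn1 probe set gave a CSC minus TEC difference of -0.07 and a CAF minus COF difference of -0.17. Ntn4, a netrin of basement membranes that binds laminin, was 6.85, 6.90 and 6.61 in CAF, 6.29, 6.20 and 6.51 in COF, 4.05 and 3.77 in CSC, and 3.87 and 4.44 in TEC. It was higher in CAF than in CSC by 2.88 ± 0.18 (adjusted p = 1.77e-06, 7.35-fold). CSC and TEC values lay below the lower quartile, so that this fold depends on the array background. Ntn3 and Ntng1 were below the lower quartile on all arrays. Ntng2 was there as well, and its CAF minus COF call was lost without any fibroblast array other than CAF replicate 2.

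The netrin receptors Unc5b and Unc5c both rose in CAF relative to COF. So did all 8 leukocyte, 5 of 8 macrophage, and 4 of 8 pericyte and smooth muscle markers. Of 10 epithelial markers 7 rose and 1 fell. The part of these cells in the Unc5b and Unc5c values was not tested. Unc5c was 7.35, 7.37 and 7.12 in CAF and 6.49, 6.63 and 6.55 in COF, a difference of 0.72 ± 0.10 (adjusted p = 8.84e-04), and its second probe set gave 1.02. Unc5b was 8.05, 8.17 and 8.21 in CAF and 7.60, 7.95 and 7.54 in COF, a difference of 0.45 ± 0.15 (adjusted p = 0.0415). Neither gene's arrays overlapped, although Unc5b lost its call without any fibroblast array other than COF replicate 2. The ligand Ntn1 was lower in CAF than in COF and both Unc5 receptors were higher. The ligand Ntn4 went the other way from Ntn1, at 0.45, and did not pass (limma adjusted p = 0.0608). The other netrin receptors did not pass, at -0.38 for Neo1, which encodes neogenin (adjusted p = 0.158), and -0.06 for Dcc (adjusted p = 0.652). Unc5b was higher in CAF than in CSC, at 6.99 and 6.58 in CSC, by 1.35 ± 0.16 (adjusted p = 8.35e-05). Unc5c was 6.74 and 6.57 in CSC against 7.04 and 7.25 in TEC, a difference of -0.49 ± 0.13 (adjusted p = 0.0119), and that call was lost without CSC replicate 2 or TEC replicate 2. Its second probe set gave -0.10, and the mean of both gave -0.30 (adjusted p = 0.149). Unc5c was higher in CAF than in CSC by 0.63 ± 0.12 (adjusted p = 0.00122). The dimmer probe set gave 2.16 there.

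Of the 5 ephrins A, 3 rose in CAF relative to COF and 4 differed between CAF and CSC. These shares were 60% and 80%, beside 34.8% and 66.5% of all genes. Efna1, a ligand of EphA2 that is known from epithelia and vessels, was 6.15, 6.06 and 6.39 in CAF, 5.50, 5.67 and 5.62 in COF, 9.23 and 8.74 in CSC, and 6.87 and 7.29 in TEC. The 4 populations kept to separate ranges, with CSC highest. Efna1 was higher in CSC than in TEC by 1.91 ± 0.20 (adjusted p = 7.53e-05, 3.75-fold) and lower in CAF than in CSC by a difference of -2.79 ± 0.18 (adjusted p = 1.76e-06, 6.9-fold). It was higher in CAF than in COF by 0.61 ± 0.16 (adjusted p = 0.0165), a call lost without CAF replicate 3, COF replicate 1 or COF replicate 3. A second Efna1 probe set gave 0.30 there (adjusted p = 0.0543 in a fit over all probe sets). Efna4 was 6.25, 5.99 and 6.03 in CAF and 5.22, 5.41 and 5.52 in COF, a difference of 0.71 ± 0.11 (adjusted p = 0.00105). It was higher in CSC, at 6.24 and 6.28, than in TEC, at 5.55 and 5.59, by 0.69 ± 0.13 (adjusted p = 0.0021). Efna3 ran from 5.85 to 6.11 in CAF and from 5.48 to 5.69 in COF, and its call was lost without CAF replicate 1, CAF replicate 2, COF replicate 1 or COF replicate 3. Efna2 and Efna5 passed between CAF and CSC at differences of 0.42 and 0.35, and Efna5 was below the lower quartile on all arrays. The call of Efna2 was lost without CAF replicate 2 or CSC replicate 1. That of Efna5 was lost without CAF replicate 1 or 2, COF replicate 1 or 3, or either CSC array.

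Epha2, a receptor of Efna1 in epithelia, was 7.72, 7.63 and 7.64 in CAF, 7.15, 7.11 and 7.08 in COF, 9.01 and 8.65 in CSC, and 7.35 and 8.03 in TEC. CSC arrays lay above all others, and CAF lay above COF with no overlap. Epha2 was higher in CSC than in TEC by 1.14 ± 0.20 (adjusted p = 0.00148), lower in CAF than in CSC by a difference of -1.17 ± 0.18 (adjusted p = 4.32e-04) and higher in CAF than in COF by 0.55 ± 0.16 (adjusted p = 0.0289). The CAF minus COF call was lost without any 1 of the 6 fibroblast arrays. Epithelial markers moved with both genes. All 10 rose in CSC relative to TEC, with summed levels of 16.01 to 16.23 in CSC and 13.61 to 14.20 in TEC. Of the same 10, 7 rose and 1 fell in CAF relative to COF, with CAF sums of 10.82 to 11.36 and COF sums of 9.86 to 10.66. The part of epithelial cells in the Efna1 and Epha2 values was not tested.

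Epha3 was 9.10, 9.23 and 9.04 in CAF, 7.61, 7.87 and 7.52 in COF, 3.14 and 2.86 in CSC, and 3.38 and 6.01 in TEC. Epha3 is a receptor of ephrins A known from mesenchyme and stroma. CAF lay above COF, COF above TEC and CSC, and the TEC arrays lay far apart. The CAF minus CSC difference was 6.12 ± 0.58 (adjusted p = 1.94e-05, 69.5-fold), the greatest of all members by the probe sets used, and its size depends on the array background because CSC lay below the lower quartile. The CAF minus COF difference was 1.45 ± 0.52 and did not pass (adjusted p = 0.0581). The other Epha3 probe sets gave 3.75 and 1.93 for CAF minus CSC, so that the size depends on the set. For CAF minus COF they gave 0.93 and 0.98 and passed in a fit over all probe sets (adjusted p = 6.66e-04 and 9.97e-04).

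Of the 8 EphA receptors, 4 rose in CSC relative to TEC and none fell, a share of 50% that is near the 46.7% of all genes. Epha1, a receptor of epithelia, was 7.02 and 7.01 in CSC against 5.55 and 6.04 in TEC, a difference of 1.22 ± 0.16 (adjusted p = 3.12e-04). Its other probe sets gave 0.39 and 0.14 and did not pass. Between CAF and CSC its probe sets disagreed, with -0.69 ± 0.15 for the set used (adjusted p = 0.00286) and 0.84 and 0.13 for the others. Epha4, which binds ephrins of both classes, was 7.83 and 7.57 in CSC against 6.03 and 7.11 in TEC, a difference of 1.13 ± 0.30 (adjusted p = 0.0122) that was 0.59 without TEC replicate 1 and lost its call without CSC replicate 1 (adjusted p = 0.0651). A second Epha4 probe set gave 0.75. Epha7 was 4.86 and 5.22 in CSC against 4.58 and 4.02 in TEC, a difference of 0.74 ± 0.21 (adjusted p = 0.0162) that was lost without CSC replicate 2 or TEC replicate 2 (0.46 without the last). The other Epha7 probe sets gave 2.44 and 0.00 for CSC minus TEC, so the sets disagree. By the set used, Epha7 lay below the lower quartile on both TEC arrays and on CSC replicate 1. Epha8 was higher in CAF, at 5.74 to 6.06, than in CSC, at 5.35 and 5.38. Epha5 and Epha6 were below the lower quartile on all arrays.

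Efnb2, an ephrin of arterial endothelium and mesenchyme, was 9.59, 9.40 and 9.61 in CAF, 9.93, 10.37 and 10.16 in COF, 7.89 and 7.54 in CSC, and 7.04 and 8.48 in TEC. CAF lay below COF and above CSC with no overlap, whereas CSC lay between the TEC arrays. It was higher in CAF than in CSC by 1.82 ± 0.35 (adjusted p = 0.00137), and its other probe sets gave 2.03, 0.93 and 0.03. Its CSC minus TEC difference changed sign with the TEC array used, at 0.67 without TEC replicate 2 (adjusted p = 0.0254) and -0.77 without TEC replicate 1 (adjusted p = 0.0164). Efnb1 was 8.38 and 8.15 in CSC against 7.56 and 7.67 in TEC, a difference of 0.64 ± 0.12 (adjusted p = 0.00214). Between CAF and CSC the Efnb1 probe sets disagreed, at 0.10 for the set used and -0.42 and -0.81 for the others. Ephb4, a receptor of Efnb2, was 7.31 and 7.44 in CSC against 6.41 and 6.29 in TEC, a difference of 1.03 ± 0.11 (adjusted p = 8.55e-05). It was lower in CAF, at 6.79 to 6.83, than in CSC by a difference of -0.56 ± 0.10 (adjusted p = 8.30e-04). Ephb3 was 8.02 and 7.88 in CSC against 7.42 and 7.32 in TEC and also passed there. Ephb6 passed in no comparison, and no ephrin B or EphB receptor passed between CAF and COF. Efnb3 was higher in CAF, at 6.14 to 6.17, than in CSC, at 5.62 and 5.45.

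**Figure D3:**
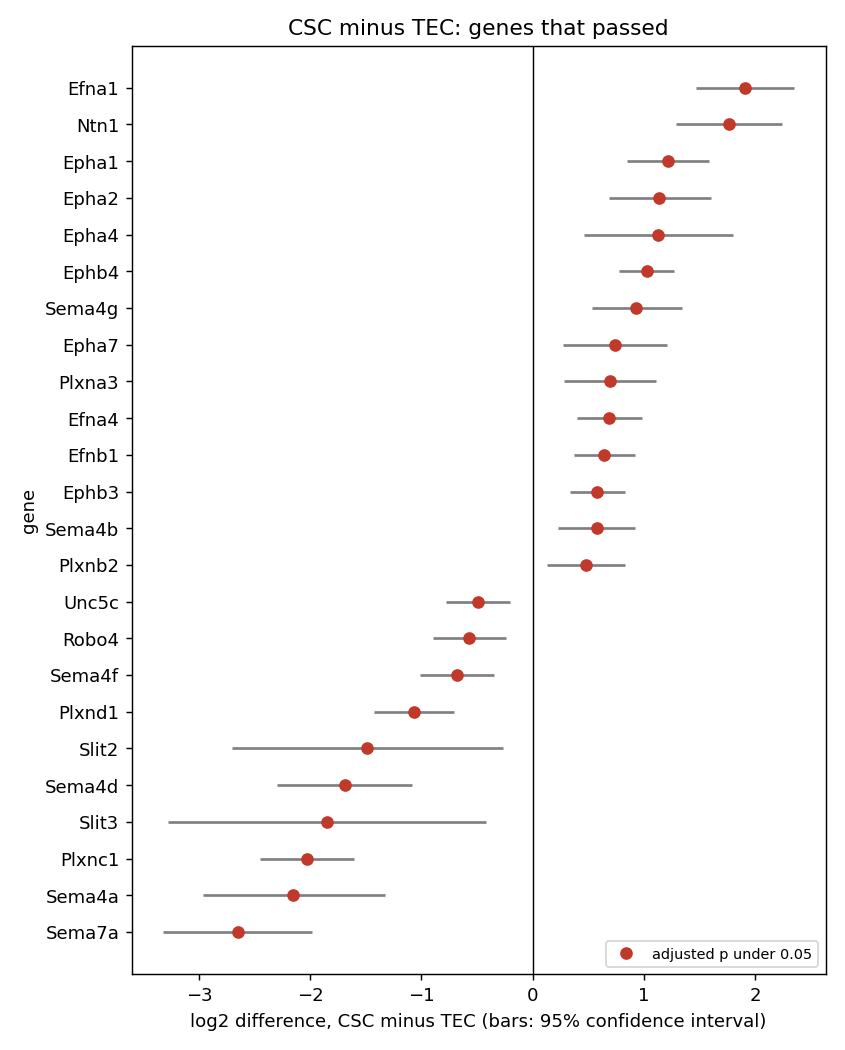
Log2 difference, CSC minus TEC, of the 24 members that passed, with 95% confidence intervals. Efna1 has the greatest increase at 1.91 and Sema7a the greatest decrease at -2.65, and the intervals of Slit3 and Slit2 are the widest among those shown.

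The arrays of CAF and COF did not overlap for 22 members, where 56.6% of all genes did not. Of these 22, 9 did not pass. Epha5, Sema4d and Sema4f did not pass in a fit to the 6 fibroblast arrays alone either. The other 6 of the 9 are set out because they did, and were Epha3, Slit3, Robo1, Efnb2, Ntn4 and Epha4. Their CAF minus COF differences were 1.45 ± 0.52 for Epha3, 0.75 ± 0.52 for Slit3 (adjusted p = 0.32), -0.74 ± 0.37 for Robo1 (adjusted p = 0.158), -0.63 ± 0.31 for Efnb2 (adjusted p = 0.158), 0.45 ± 0.16 for Ntn4 (adjusted p = 0.0608) and -0.34 ± 0.24 for Epha4 (adjusted p = 0.328). The spread of the fit is pooled over all 10 arrays and so includes the distance between the TEC arrays. The fit to the 6 fibroblast arrays alone, by which these 6 genes were picked, gave limma adjusted p-values of 8.04e-05 for Epha3, 1.59e-04 for Slit3 and 0.00207 for Robo1. They were 0.00507 for Efnb2, 0.014 for Ntn4 and 0.0485 for Epha4. That fit called 19 members, 12 higher and 7 lower in CAF, the 13 among them, where 45.9% of all genes passed. Leaving a TEC array out of the pooled fit can change only the spread. The CAF minus COF differences stay as they are, since the fit had a term for group alone. The 3 other Efnb2 probe sets gave -1.04, -0.48 and 0.01.

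**Figure D4:**
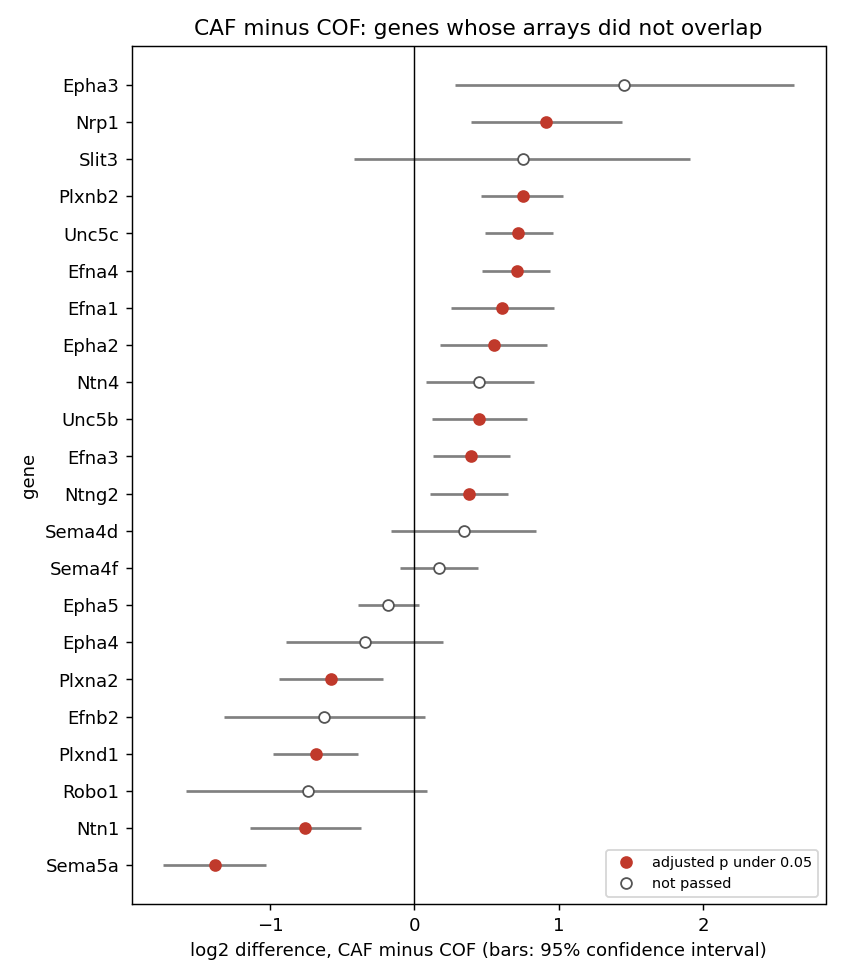
Log2 difference, CAF minus COF, of the 22 members whose CAF and COF arrays did not overlap, with 95% confidence intervals from the fit to 10 arrays. Filled points passed at an adjusted p under 0.05 and open points did not, and the intervals of Epha3 and Slit3, which did not pass, are among the widest.

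The TEC arrays differed by at least 1 for 9 members, and all 9 were higher on TEC replicate 2. The share of all genes that did so was not counted, nor was that for the ranges within the other groups. Over all genes the SD of the differences between the TEC arrays was 0.55, so the 9 cannot be read as particular to the members. The distance was 2.64 for Slit3, 2.63 for Epha3, 2.12 for Slit2, 2.12 for Sema3c, 1.61 for Robo1, 1.44 for Efnb2, 1.13 for Nrp1, 1.08 for Epha4 and 1.02 for Sema3b. Each of the 9 had a higher mean in the fibroblasts than in CSC. No member had so wide a range within CAF or within CSC, and 2 had it within COF. The median of the fibroblast markers was 12.11 on TEC replicate 2 and 9.38 on TEC replicate 1. Sema5a and Sema7a, which were also higher in the fibroblasts than in CSC, differed less, at 3.41 and 3.54 for Sema5a and 8.72 and 8.59 for Sema7a on TEC replicates 1 and 2. Sema5a was below the lower quartile on both TEC arrays. Sema7a was above its CAF mean of 8.12 and its COF mean of 8.48 on both. In the fit to all arrays the CSC minus TEC difference was -1.70 ± 0.64 for Epha3 (adjusted p = 0.0544), -0.10 ± 0.58 for Sema3c (adjusted p = 0.912), 0.32 ± 0.45 for Robo1 (adjusted p = 0.595) and -0.30 ± 0.29 for Nrp1 (adjusted p = 0.427). The other Epha3 probe sets gave -0.20 and 0.02. Without TEC replicate 1 it was -3.01 for Epha3 (adjusted p = 7.97e-06), -1.16 for Sema3c (adjusted p = 0.0345) and -0.86 for Nrp1 (adjusted p = 9.02e-04). Without TEC replicate 2 it was 1.12 for Robo1 (adjusted p = 0.0154). Which TEC array was used thus set these calls. The part of fibroblast RNA in the TEC values was not tested.

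**Figure D5:**
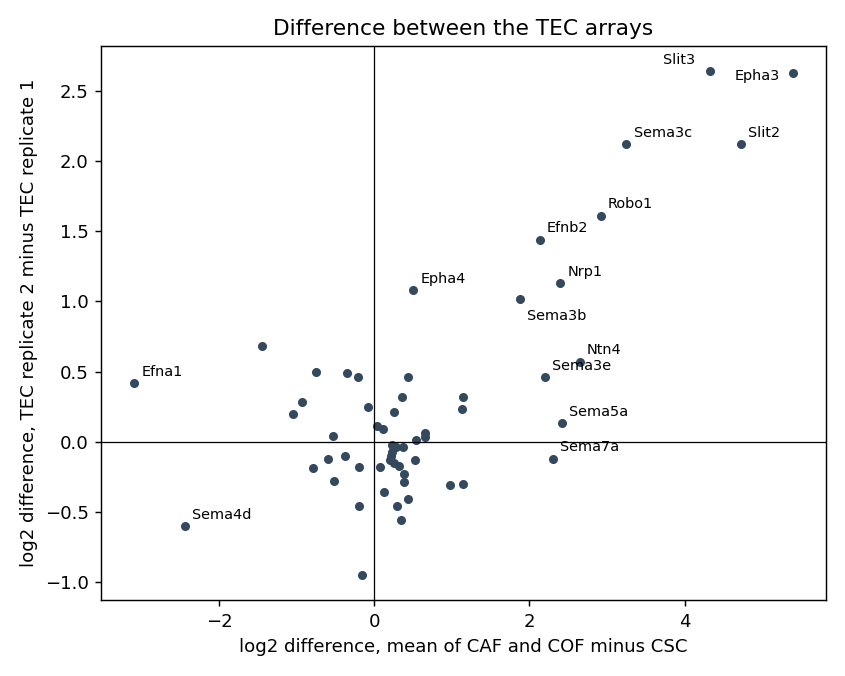
Difference between the TEC arrays (replicate 2 minus replicate 1, log2) against the difference between the mean of CAF and COF and that of CSC (log2), for the 58 members, each point a gene. The points at the upper right are Slit3, Epha3, Slit2, Sema3c and Robo1, with distances of 1.61 to 2.64 between the TEC arrays.

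Between CAF and CSC the ligands and receptors can be set out by side. Of 33 ligands, 18 were higher and 4 lower in CAF, and of 25 receptors, 7 were higher and 6 lower. The share that passed was 66.7% of the ligands and 52% of the receptors, beside 66.5% of all genes, of which about as many were higher (33.4%) as lower (33.1%). The arrays of CAF and CSC did not overlap for 45 of the 58 members, where 82% of all genes did not. For CSC and TEC this was 37 members, where 68.7% of all genes did not overlap. Differences of at least 1 that passed were found for 18 members between CAF and CSC, where 27.6% of all genes had one, and for 13 between CSC and TEC, where 19.2% had one. Efna1, Epha2, Plxnd1 and Unc5c passed in all 3 comparisons and 14 members passed in none. The shares of all genes that passed in all 3 or in none were not counted, so these counts have no background beside them. The lower quartile was not reached on any array by 8 members, and 15 members lay above the upper quartile, 8.70 to 8.83, on at least 1 array.

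Genes that carry guidance signals further were described from 2 lists. Of 19 measured adapters and other receptors, 4 were higher and 5 lower in CAF than in COF, 4 were higher and 5 lower in CSC than in TEC, and 8 were higher and 7 lower in CAF than in CSC. Chl1, a cell adhesion protein that associates with neuropilin, averaged 10.20 in CAF and 4.72 in COF, a difference of 5.49 ± 0.60 (adjusted p = 2.15e-04) whose size depends on the array background, since the COF mean lay below the lower quartile. Cntn1, a contactin, averaged 6.38 in CAF and 9.43 in COF, a difference of -3.05 ± 0.28 (adjusted p = 1.01e-04). Fyn, a Src-family kinase used by several guidance receptors, averaged 7.36 in CSC and 9.67 in TEC, a difference of -2.30 ± 0.19 (adjusted p = 2.89e-05), and Ptprf, a receptor phosphatase, averaged 11.96 in CSC and 9.24 in TEC, a difference of 2.72 ± 0.25 (adjusted p = 4.47e-05). Cd72, a B-cell protein that binds Sema4d, averaged 4.77 in CAF and 8.73 in CSC, a difference of -3.96 ± 0.21 (adjusted p = 5.28e-07) that likewise depends on the background in CAF. Sema4d and its binding partner Cd72 were thus both lower in CAF than in CSC, as were all 8 leukocyte markers.

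Of 36 measured intracellular effectors, 6 were higher and 6 lower in CAF than in COF, 10 were higher and 15 lower in CSC than in TEC, and 18 were higher and 7 lower in CAF than in CSC. Vav3 had the smallest adjusted p of the effectors in both CAF comparisons. It averaged 5.57 in CAF and 7.79 in COF, a difference of -2.22 ± 0.13 (adjusted p = 1.40e-05). Its CSC mean was 8.29, and CAF minus CSC was -2.72 ± 0.14 (adjusted p = 4.94e-07). Tiam1, an activator of Rac, averaged 8.25 in CAF and 6.42 in COF, a difference of 1.82 ± 0.14 (adjusted p = 5.15e-05). Mical1, an oxidoreductase that acts on actin downstream of plexins, averaged 6.12 in CSC and 8.66 in TEC, a difference of -2.54 ± 0.21 (adjusted p = 2.97e-05). Srgap3, a Slit-Robo GTPase-activating protein, averaged 8.34 in CSC and 6.54 in TEC, a difference of 1.79 ± 0.22 (adjusted p = 1.90e-04). Limk1, the kinase of cofilin, averaged 8.79 in CAF and 6.76 in CSC, a difference of 2.03 ± 0.18 (adjusted p = 1.36e-05), and Trio, an exchange factor used by netrin signalling, averaged 9.88 in CAF and 8.47 in CSC, a difference of 1.41 ± 0.11 (adjusted p = 6.79e-06). Of the adapters, 47.4% passed in CAF minus COF, 47.4% in CSC minus TEC and 78.9% in CAF minus CSC, and of the effectors these shares were 33.3%, 69.4% and 69.4%. Of all genes, 34.8%, 46.7% and 66.5% passed in the same comparisons, so that the adapters in CSC minus TEC and the effectors in CAF minus COF and CAF minus CSC lay near the background.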

How the data were processed

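Affymetrix mouse arrays were hybridised, per the labels, with RNA amplified from 100 ng of total RNA. The authors deposited log2 values for 22690 probe sets. The submitters' processing notes name RMA, which corrects background, equalises arrays and summarises each set. The RMA version, and whether the 10 arrays were normalized together, are not given in the sources used here. Precision is limited by the number of arrays.

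Probe sets with 1 annotated symbol (20393) were used, and those with several (691) or none (1606) were left out. A gene was read from its brightest probe set by mean over the 10 arrays. This left 12394 genes, 12370 of them matched to RefSeq by identifier. Of the 58 members, 26 had more than 1 probe set, 98 in all. Differences were fitted with limma 3.58.1 (lmFit, eBayes), run in R 4.3.3, on all 10 arrays with a term for group alone. Tests were two-sided with Benjamini-Hochberg adjustment over all genes of a contrast. Errors of differences are moderated standard errors. Summed marker levels are the log2 of the sum of linear values. RefSeq promoter entries were matched by symbol.

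Members, pathway lists, marker lists and tests were chosen with earlier results of these data known. Full statistics were given for the 10 members that rose most and the 10 that fell most in each contrast among those that passed without overlap, for their receptors or ligands among the members, for a list of members whatever their values, and for up to 4 pathway genes a list and contrast. Replicate numbers are not stated to pair samples, and deviations of same-numbered arrays did not go together. On simulated data the fit recovered 85.1% of genes changed by 1 and 38.8% of those changed by 0.5 in CAF minus COF, 79.1% and 13.4% in CSC minus TEC, and 86.6% and 14.9% in CAF minus CSC, with 9.26%, 5.22% and 4.32% of calls false. The simulation changed 200 of 12394 genes and gave a gene the same spread on all arrays. In these data far more genes passed and the groups differed in spread, so the rates need not hold for them. Alternatives were a fit to the groups of a contrast alone, a replicate block, a trend with a robust prior, a filter on dim genes, other choices of probe sets, median centring, a second quantile normalization, a stricter threshold, averaging the closest CAF and COF arrays, and leaving out each array.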

Additional observations from a re-analysis of the deposited data

How the results depend on the processing

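The number of members called between CAF and COF was 13 and lay between 7 and 18 with 1 array left out. It was 6 at an adjusted p under 0.01, where 21.3% of all genes passed, and 4 with the closest CAF and COF arrays averaged, where 14.6% did. For the pathway genes of that comparison it was 21, with 12, 9 and 13 to 25 under the same settings. Between CSC and TEC, 46.7% of all genes passed. That share was 24.3% in the fit to those 4 arrays alone and 33% at an adjusted p under 0.01. In the main fit of this comparison, 24 members and 34 pathway genes were called. These were 11 and 15 in the fit to those 4 arrays alone and 18 to 27 and 26 to 35 with 1 array left out, and 15 members passed at an adjusted p under 0.01. Between CAF and CSC, with 35 members and 40 pathway genes, the counts were 33 to 36 and 31 to 43 with 1 array left out and within 1.5 times those counts in all settings run.

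With the replicate number as a block, 11 members passed between CAF and COF, 23 between CSC and TEC and 33 between CAF and CSC. Of all genes, 31.8%, 43.3% and 63% passed in those fits. Correlations of same-numbered arrays' deviations lay between -0.08 and 0.13. Deviations from a mean of 2 or 3 arrays are tied to each other, so these values cannot exclude that the numbers pair samples. Efnb2 changed sign in CSC minus TEC, at 0.67 without TEC replicate 2 and -0.77 without TEC replicate 1. Where a gene's probe sets were averaged, Efnb1 gave -0.38 (limma adjusted p = 0.0185) and Epha1 0.09 (adjusted p = 0.451) between CAF and CSC. Over the gene results and settings, 3216 stayed on their side of the threshold, 63 came to pass, 132 no longer passed and the 3 named above reversed. Of the 3216, 55 took the opposite sign. The causes were not tested. Leaving out the dimmest 30% of genes kept 36 members, and members near the array background have only a bound on their folds.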
